A study of Mus musculus with 4 samples.

Results

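CD4 T cells carrying neither Foxp3 nor Il17 transcripts were examined in single-cell RNA sequencing of CD45+ cells (leukocytes) of the mouse nasal mucosa. They were 2600 of the 72320 cells that passed the filters, from 79132 deposited cells. The mice were C57BL/6 animals aged 8 weeks, and 1 library was made for each of 4 groups, Vehicle and Ribavirin without allergen and Vehicle-OVA and Ribavirin-OVA with it. OVA is ovalbumin, the allergen of this allergic rhinitis model (given into the peritoneum with alum, then into the nose), and ribavirin is an antiviral drug. The ribavirin dosing and the number of mice behind a library are not given in the sources used here. No genotype other than the strain is named. With 1 library a group there is no replicate check and no test, and the 95% intervals in brackets after values express the error of counting alone.

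The cells were chosen by their own UMI counts (unique molecular identifiers, 1 per captured transcript), so the genes of the selection are no findings. A selected cell had at least 2 UMIs of Cd3e, Cd3d and Cd3g together and at least 1 of Cd4. It had none of Foxp3 (the factor of regulatory T cells), Il17a, Il17f, Cd163l1 (a gene of gamma-delta T cells), Cd8a, Cd8b1, Cd79a, Cxcr2 or Siglech, fewer than 3 of the division genes Mki67 and Top2a, and fewer than 2 of the macrophage genes C1qa, C1qb and C1qc. Here and below, 4 values in a row belong to Vehicle, Vehicle-OVA, Ribavirin and Ribavirin-OVA in that order. The selection held 1130, 385, 641 and 444 cells. At its edge, 36, 35, 19 and 23 of them had exactly 2 Cd3 UMIs and 561, 118, 286 and 125 exactly 1 Cd4 UMI. Just outside were 20, 22, 13 and 32 cells with 1 Cd3 UMI and 1085, 225, 675 and 252 cells with no Cd4 UMI that met every other limit.

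Helper T cells recognise antigen through a receptor that signals by CD3, with CD4 as coreceptor, and help other cells through surface molecules such as ICOS and CD40 ligand and through cytokines. Their main programmes include type 1 (T-bet, interferon gamma) and type 2 (GATA3 and the interleukins 4, 5 and 13). In allergic airways the type 2 cytokines act on B cells that switch to IgE, on eosinophils and on the mucus-producing epithelium, and the alarmin IL-33 acts on T cells that carry its receptor, encoded by Il1rl1.

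The 3 type 2 interleukins are encoded within 1 cluster on mouse chromosome 11, with Il4 at chr11:53612460-53618665, Il13 at chr11:53631323-53634702 and Il5 at chr11:53720794-53725103 (RefSeq on GRCm38.p6, the assembly also called mm10, which the submitters' processing notes name). Their start-site windows, from 250 bases before to 50 bases after a RefSeq start, are shown because these are the transcripts that the results turn on. For Il4 the table holds 2 starts, and the window of the upstream one is printed. Capitals mark matches on either strand to AGATAA, a motif of GATA factors such as the one encoded by Gata3. They also mark matches to GGAAAA, a form of the motif of NFAT factors, which act downstream of the T cell receptor. The last motif marked was TATAAA, the TATA box.
Il4 window, chr11:53618616-53618915, minus strand: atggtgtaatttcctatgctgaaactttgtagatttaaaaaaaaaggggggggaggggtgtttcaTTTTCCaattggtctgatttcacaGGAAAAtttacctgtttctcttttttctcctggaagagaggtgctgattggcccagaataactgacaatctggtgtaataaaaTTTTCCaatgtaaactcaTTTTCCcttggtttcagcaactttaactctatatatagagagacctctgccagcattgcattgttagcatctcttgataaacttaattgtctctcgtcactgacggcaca
Il13 window, chr11:53634653-53634952, minus strand: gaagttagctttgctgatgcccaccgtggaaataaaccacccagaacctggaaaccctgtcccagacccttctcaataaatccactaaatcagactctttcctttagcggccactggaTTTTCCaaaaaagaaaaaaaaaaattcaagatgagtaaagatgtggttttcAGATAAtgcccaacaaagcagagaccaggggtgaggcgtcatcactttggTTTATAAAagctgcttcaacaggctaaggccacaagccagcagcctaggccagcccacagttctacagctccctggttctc
Il5 window, chr11:53720544-53720843, plus strand: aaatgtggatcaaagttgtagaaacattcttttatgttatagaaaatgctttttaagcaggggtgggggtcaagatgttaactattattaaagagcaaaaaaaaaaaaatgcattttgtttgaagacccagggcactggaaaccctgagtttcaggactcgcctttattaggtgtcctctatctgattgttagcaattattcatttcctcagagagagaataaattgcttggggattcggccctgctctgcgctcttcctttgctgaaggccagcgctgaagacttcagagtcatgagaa

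Only these exact letters were searched, so shorter or variant forms of the motifs were not counted. The Il4 window held 4 matches to GGAAAA and none to AGATAA. The Il13 window held 1 match to AGATAA, 1 to GGAAAA and 2 overlapping matches to TATAAA, 1 on each strand. The Il5 window held no exact match to any of the 3. Of 32851 mouse windows of this length, 11.2% held AGATAA, 23.4% GGAAAA and 13.6% TATAAA. A match describes the letters of a window only.

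The T cell part of the label was checked with T cell genes outside the selection. Icos stood at 596, 1089, 568 and 915 CPM (UMIs of a gene scaled to the total of the same cells) in the selected cells and at 128, 91.1, 95.9 and 127 CPM in all other cells of their libraries. Cd40lg stood at 167, 73.9, 118 and 76.2 CPM, against 29.8, 5.38, 13.1 and 6.99 CPM in the other cells. The 10 of 13 listed T cell genes that the files hold (receptor constant genes are not among them) were all detected and summed to 2825, 3644, 2820 and 3818 CPM. The cells thus carried T cell genes that had not selected them. Icos was not particular to them, found in 76.3%, 84.7%, 75.5% and 88.7% of them. In CD4 T cells with Foxp3 it was found in 89.3%, 98.2%, 90.4% and 93.4%. Cd40lg went the other way, at 40.2%, 28.6%, 33.9% and 32.4% against 9.27%, 5.26%, 2.87% and 0%.

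Transcripts of other cell types were counted in the same cells, and their part in the differences given below was not tested. The 6 neutrophil markers summed to 441, 1779, 687 and 301 CPM, with Cxcr2 at 0 by selection, and Vehicle-OVA was highest. The 9 macrophage and monocyte markers summed to 771, 378, 478 and 385 CPM, the 4 plasma cell markers to 399.7, 221, 345 and 306 CPM and the 4 epithelial markers to 23.7, 37.4, 32.4 and 111 CPM. Mast cell and basophil markers were at or near 0, at 0, 1.40, 0 and 1.80 CPM, and B cell markers at 3.36, 5.15, 4.25 and 3.95 CPM. The median depth of a selected cell was 3957, 4838, 4380 and 5506 UMIs, deepest in Ribavirin-OVA, and 19, 7, 10 and 8 selected cells had a barcode that also occurred in another library.

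The abundance of these cells differed with OVA in opposite directions under vehicle and ribavirin when set against all cells. Their share of passing cells was 4.39% (4.15–4.65) for Vehicle, 2.20% (1.99–2.43) for Vehicle-OVA, 3.16% (2.92–3.41) for Ribavirin and 5.04% (4.59–5.51) for Ribavirin-OVA. Vehicle-OVA held 0.501 times (0.445–0.563) the share of Vehicle, and Ribavirin-OVA 1.59 times (1.41–1.80) that of Ribavirin. With the cells that had at least 2 Cd3 UMIs as denominator, the shares were 15.3% (14.5–16.1), 24.0% (21.9–26.2), 13.5% (12.5–14.5) and 23.5% (21.6–25.5), higher with OVA in both pairs. A larger number of these cells and a smaller number of other cells cannot be told apart from shares.

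Among cells with both Cd3 and Cd4 UMIs, 46.6%, 23.0%, 41.8% and 19.8% had been set aside for an Il17a, Il17f or Cd163l1 UMI, fewer in the OVA libraries. Those with a Foxp3 UMI were 11.3%, 11.9%, 17.4% and 11.5%, and 1 cell can fall under several limits. The share that remained was 31.5%, 49.4%, 29.7% and 49.2%.

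**Figure D1:**
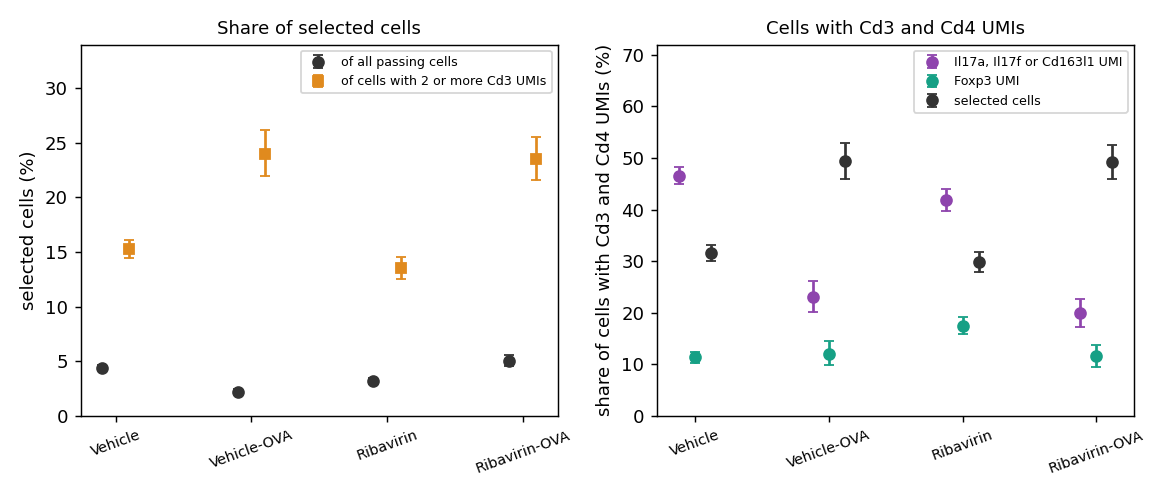
Left, selected cells as a share (%) of passing cells and of cells with at least 2 Cd3 UMIs in the 4 libraries. Right, shares (%) of cells with Cd3 and Cd4 UMIs that carried an Il17 or Cd163l1 UMI, carried a Foxp3 UMI or remained selected. Bars are exact 95% binomial intervals. Vehicle-OVA is lowest of passing cells (2.20%) and highest of Cd3 cells (24.0%).

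Type 2 cytokine transcripts were found, within the selected cells, mostly in the OVA libraries. An Il4, Il5 or Il13 UMI was found in 4 of 1130 cells of Vehicle (0.354%, 0.0965–0.904), 28 of 385 of Vehicle-OVA (7.27%, 4.89–10.3), 4 of 641 of Ribavirin (0.624%, 0.170–1.59) and 51 of 444 of Ribavirin-OVA (11.5%, 8.67–14.8). The intervals of both OVA libraries lay above those of both others, while those of Vehicle-OVA and Ribavirin-OVA overlapped. At an equal depth of 1000 UMIs a cell, the shares expected from these counts were 0.139, 3.61, 0.0984 and 5.40%, leaving out 4 shallower cells of Vehicle and 1 of Ribavirin-OVA.

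Il4, the cytokine of the switch to IgE, had 1, 84, 2 and 86 UMIs. Il5, the growth factor of eosinophils, had 8, 22, 1 and 69 UMIs, and the 8 of Vehicle lay in 1 cell. Il13, which acts on airway epithelium and mucus, had 2, 170, 1 and 272 UMIs and was the most counted of the 3 in both OVA libraries. The levels of Il13 were 0.395, 79.5, 0.327 and 97.8 CPM, those of Il4 0.198, 39.3, 0.654 and 30.9 CPM and those of Il5 1.58, 10.3, 0.327 and 24.8 CPM. Of all Il13 UMIs of a library the selected cells held 35.9% in Vehicle-OVA and 13.5% in Ribavirin-OVA. For Il4 they held 15.6% and 7.34%, and for Il5 22.4% and 11.0%, so most of these cytokine UMIs lay in other cells.

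The 3 cytokines often occurred in the same cell. In Vehicle-OVA 13 cells had Il4 with Il13, 2 had Il5 with Il13, 4 had all 3, 6 had Il13 alone and 3 had Il4 alone. In Ribavirin-OVA the same combinations had 11, 5, 11, 16 and 6 cells, and 2 cells had Il5 alone. None had Il4 with Il5 and no Il13. Only 1 UMI of the 3 genes was behind the call in 5 and 9 of the cells.

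In the OVA libraries other T cells gave lower shares, although the wide intervals of the Foxp3 class overlapped those of the selected cells. CD4 T cells with Foxp3 had a type 2 cytokine UMI in 0 of 205, 2 of 57, 1 of 209 and 2 of 61 cells, where 0 of 205 allows a share of up to 1.46% by 3 counts and 1.78% by the exact interval. T cells with Cd8 had it in 3 of 691, 0 of 217, 1 of 492 and 3 of 246, where 0 of 217 allows up to 1.38% by 3 counts and 1.69% by the exact interval, and T cells with Il17 or Cd163l1 in 5 of 1813, 3 of 245, 4 of 1069 and 4 of 305. As a comparison class, cells with Cxcr2 and no Cd3 (neutrophils, which should lack these cytokines) had it in 0.0596%, 0.439%, 0.0980% and 1.93%, at median depths of 2535, 3473, 2973 and 3456 UMIs. At 1000 UMIs these became 0.0307, 0.151, 0.0312 and 0.633%. The selected cells of both OVA libraries exceeded this share at either depth. In Vehicle and Ribavirin, with 4 cells each, the intervals of the selected cells and of this class overlapped. In Vehicle-OVA the class held 118 Il4 UMIs (21.9% of the library), with 42 in a single cell against at most 18 in a selected cell, so its share does not measure free RNA alone. Cells with at least 2 Cd79a UMIs and no Cd3, at medians of 9308, 7777, 10340 and 16917 UMIs, had 0.0742%, 2.74%, 0% and 6.98%. When 1000 UMIs a cell were drawn at random, they had 0%, 0%, 0% and 0.634%. The selected cells had 0.178%, 2.86%, 0% and 4.51% in the same kind of draw.

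**Figure D2:**
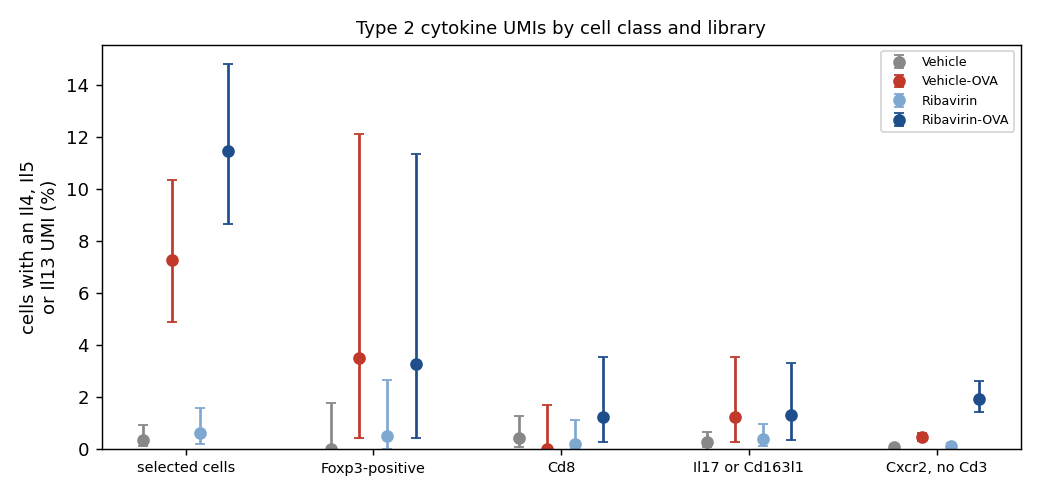
Share of cells (%) with an Il4, Il5 or Il13 UMI among the selected cells and other classes of cells, in the 4 libraries, with exact 95% binomial intervals. The selected cells of Vehicle-OVA (7.27%) and Ribavirin-OVA (11.5%) stand highest, and the intervals of the small Foxp3 class are wide.

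The 28 and 51 cytokine-positive cells of Vehicle-OVA and Ribavirin-OVA were then set beside the 357 and 393 selected cells without these UMIs. They were deeper, with medians of 8636 against 4684 and 9035 against 5240 UMIs, and a deeper cell more often shows a UMI of any gene. Other T cell genes were found in them, several at lower levels than in the other cells. Lck, the kinase of the T cell receptor, was found in 85.7% and 80.4% of the positive and 77.9% and 79.1% of the other cells, and Icos in 82.1% and 96.1% and 84.9% and 87.8%. In CPM, however, the positive cells of Vehicle-OVA and Ribavirin-OVA held Lck at 0.620-fold and 0.741-fold the level of the others, Lat, an adaptor of receptor signalling, at 0.241-fold and 0.440-fold, Cd28, a costimulatory receptor, at 0.509-fold and 0.496-fold and Themis, a regulator of receptor signalling, at 0.240-fold and 0.556-fold. Cd28 was found in 85.7% and 54.9% of the positive and 85.4% and 91.1% of the other cells. Lat was found in 75% and 76.5% against 87.1% and 87.0%, and Themis in 35.7% and 52.9% against 52.1% and 56.2%. Cd2, a further T cell gene, went the other way, at 1.64-fold and 1.48-fold the level of the others. Markers of type 2 innate lymphoid cells (ILC2) were mostly higher in the positive cells, and their part in the differences below was not tested. Of the 6 on the list, Klrg1 was found in 25% and 43.1% against 5.04% and 4.58% and Rnf128 in 21.4% and 37.3% against 2.24% and 3.82%. Arg1 stood at 10.3 against 30.3 CPM in Vehicle-OVA and 126 against 17.9 CPM in Ribavirin-OVA, and Il1rl1 and Areg are given below. Hs3st1 had 0 and 1 UMIs in the positive cells, and was found in 11.8% and 16.3% of the cytokine-positive cells without Cd3 or Cd4 UMIs. There Il1rl1 was found in 19.6% and 16.3%, Klrg1 in 7.84% and 6.73%, Areg in 13.7% and 14.4% and Rnf128 in 15.7% and 16.3%. These markers were rarer there than in the positive selected cells. Gata3 was found there in 13.7% and 12.5% and Icos in 13.7% and 17.3%. Which cell types that class holds was not tested, so its shares are no reference for ILC2. Arg1, at 43.1% and 43.3% against 10.7% and 21.6%, was more common there. Of 8242 genes compared, 6.84% were at least 2-fold higher and 12.7% at least 2-fold lower in the positive cells of Vehicle-OVA, and 4.62% and 9.67% in those of Ribavirin-OVA, on a log2 scale after adding 5 CPM, which understates low genes.

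Genes of the type 2 programme were found more often in the positive cells. Gata3, its defining factor, was found in 100% and 96.1% of them, against 46.2% and 50.9% of the others. Il1rl1, the IL-33 receptor, was found in 78.6% and 86.3% against 5.88% and 10.7%, and Areg, a growth factor for epithelium, in 78.6% and 72.5% against 6.44% and 6.36%. Il10, a cytokine that restrains inflammation, was found in 82.1% and 68.6% against 7.00% and 5.09%, so most positive cells of either library carried it. Calca, which encodes calcitonin and the neuropeptide CGRP, was found in 60.7% and 64.7% against 1.96% and 4.07%. Its level was 3687 against 25.4 CPM in Vehicle-OVA and 3488 against 142 CPM in Ribavirin-OVA, and a single cell held 43.3% of the Calca UMIs of Vehicle-OVA. Of the 15 measured type 2 programme genes 11 and 10 were at least 2-fold higher, with medians of 2.90 and 2.73 against -0.13 and -0.13 for all genes.

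The 12 genes highest in positive cells of both libraries were Cyp11a1, Il17rb, Calca, Il1rl1, Il2ra, Foxb1, Areg, Neb, Slc17a6, Gfra4, Tnfrsf8 and Shtn1. Cyp11a1, the enzyme that starts steroid synthesis from cholesterol, stood at 461 against 10.3 CPM in Vehicle-OVA and 551 against 7.42 CPM in Ribavirin-OVA. Il17rb, a subunit of the IL-25 receptor, stood at 186 against 2.17 CPM in Vehicle-OVA and 250.9 against 5.67 CPM in Ribavirin-OVA, and Il2ra, the high-affinity subunit of the IL-2 receptor, at 1943 against 66.1 CPM in Vehicle-OVA and 1112 against 54.1 CPM in Ribavirin-OVA. Pparg, a lipid-sensing nuclear receptor, stood at 131 against 4.87 CPM in Vehicle-OVA and 112 against 6.98 CPM in Ribavirin-OVA. Apart from Pparg, chosen after values were seen, these genes were ranked by this ratio, so their direction is no finding. Cyp11a1, Il17rb, Foxb1, Slc17a6, Gfra4, Tnfrsf8, Shtn1 and Pparg also reached the minimum of 50 UMIs only through the positive cells.

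Genes of the type 1 and naive programmes were low in the positive cells. The 6 lowest, picked by this same ratio, were Ccl5, Cxcr3, Ly6c2, Gzma, Tcf7 and Il18r1. Cxcr3, a chemokine receptor of type 1 cells, had no UMI in any positive cell but was found in 32.2% and 44.0% of the others. Ccl5, a chemokine of effector cells, stood at 0 against 679 CPM in Vehicle-OVA and 8.16 against 750.3 CPM in Ribavirin-OVA. Tcf7, a factor of naive and memory cells, was found in 1 positive cell of each library, against 68.9% and 56.0% of the others. Ifng, which encodes interferon gamma, was found in 0% and 9.80% against 24.4% and 32.6%. At least 2-fold lower were 8 and 9 of 14 type 1 genes, 11 and 9 of 13 naive genes and 14 and 16 of 18 interferon-stimulated genes. Of all genes compared it was 12.7% and 9.67%. None of these lists had a gene 2-fold higher. Other lists were low too, with 7 and 7 of 10 residual type 17 genes and 11 and 9 of 18 chemokine receptors and integrins. Of the residual type 17 genes 2 and 1 were at least 2-fold higher.

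**Figure D3:**
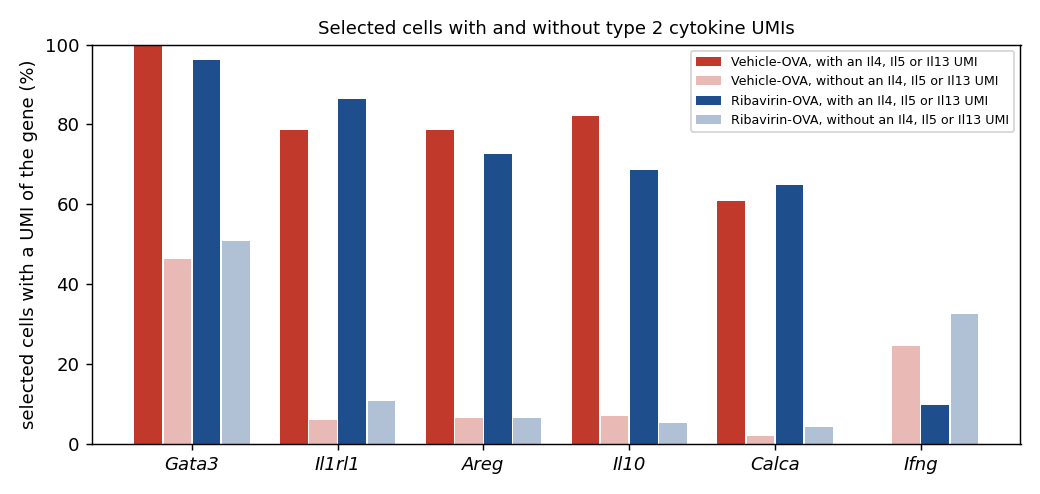
Share of selected cells (%) with a UMI of each gene, for cells with and without an Il4, Il5 or Il13 UMI, in Vehicle-OVA and Ribavirin-OVA. Gata3 reached 100% and 96.1% and Il10 82.1% and 68.6% of the positive cells, and Ifng 0% and 9.80%. The positive cells are deeper, at medians of 8636 and 9035 UMIs.

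Over all selected cells, OVA was compared within vehicle and within ribavirin, in pairs that share no library. Of 9648 genes with at least 50 UMIs, 9.19% were at least 2-fold higher and 2.49% at least 2-fold lower in Vehicle-OVA than in Vehicle, and 7.45% and 2.25% in Ribavirin-OVA than in Ribavirin. At least 2-fold higher in both pairs were 352 genes, which is 39.7% of those in the vehicle pair and 49.0% of those in the ribavirin pair. The median of all genes was 0.33 and 0.35 (log2), and 0.0121 and 0.00602 with median-of-ratios scaling, so list medians are to be read against it. With that scaling the balance turned over, to 308 genes at least 2-fold higher and 662 lower in the vehicle pair and 248 and 558 in the ribavirin pair, from 887 and 240 and from 719 and 217. The 82 ribosomal protein genes had medians of -0.91 and -1.01, and 36 and 42 of them were at least 2-fold lower.

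Several type 2 genes were higher with OVA in both pairs. Il4, Il5 and Il13 reached the minimum of 50 UMIs only through the OVA libraries where they were high, so their passing 2-fold was largely fixed by that minimum. Of the type 2 programme, 10 and 8 of 15 measured genes (of 18 listed) were at least 2-fold higher, with medians of 2.00 and 1.34, and Calca, Il17rb, Pparg and Il6 of that list also reached the minimum only through the OVA libraries. Calca had 3.56, 524, 4.58 and 732 CPM, which was 147-fold (92.7–249) and 159.8-fold (94.99–293) with OVA. Il1rl1 had 12.1, 267, 16.4 and 426 CPM, 22.1-fold (16.96–29.3) and 26.0-fold (19.6–35.3). Neither library without OVA came near the OVA libraries for these genes. Il10 had 9.69, 452, 25.2 and 322 CPM, 46.7-fold (35.01–63.5) and 12.8-fold (10.1–16.4), and Gata3 80.0, 393, 88 and 574 CPM. Epas1, a hypoxia-inducible factor, had 9.49, 82.8, 9.49 and 208 CPM, highest in Ribavirin-OVA. The ILC2 list, which shares Il1rl1 and Areg with the type 2 lists, summed to 128, 617, 79.8 and 797 CPM.

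The same genes were read in other cells. Cells with Cxcr2 and no Cd3 had 5.14, 21.6, 4.26 and 12.5 CPM of Il10 and 0.844, 0.936, 0.158 and 2.64 CPM of Calca. CD4 T cells with Foxp3 had more Il10, at 107, 891, 174 and 645 CPM, but less Calca in the OVA libraries, at 0, 19.4, 3.25 and 169.7 CPM. T cells with Cd8 had 1.28, 43.6, 5.12 and 18.3 CPM of Il10 and 4.17, 3.35, 6.22 and 7.33 CPM of Calca. Il1rl1 was found in a larger share of the Foxp3 cells, 28.8%, 40.4%, 25.4% and 47.5%, than of the selected cells, 3.01%, 11.2%, 4.06% and 19.4%. Calca was found in 0.354%, 6.23%, 0.780% and 11.0% of the selected cells and in 1.49%, 1.22%, 0.561% and 5.90% of T cells with Il17 or Cd163l1, where it was higher with OVA under ribavirin.

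**Figure D4:**
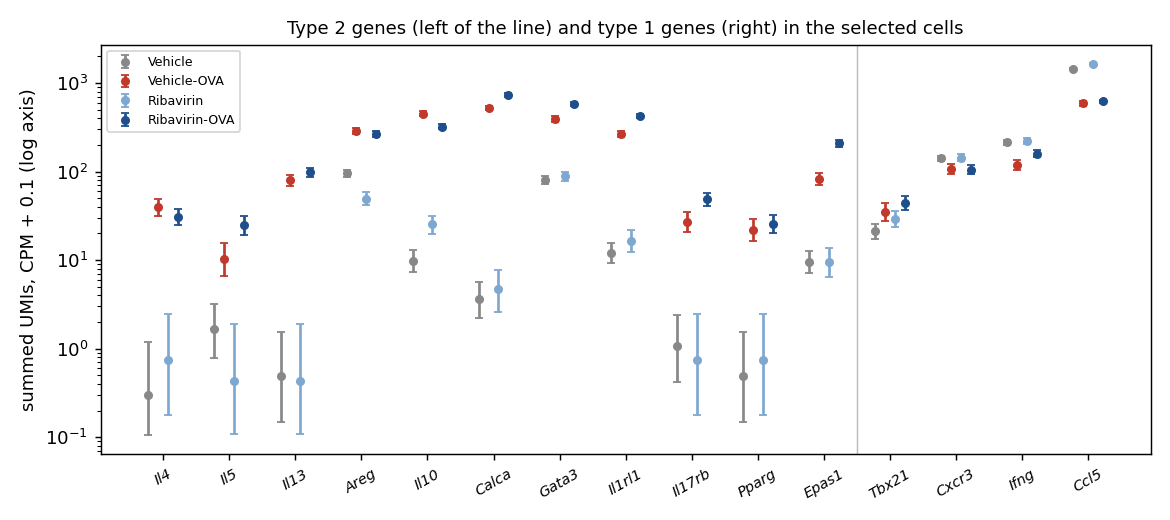
Level of 15 genes in the summed selected cells of the 4 libraries, as CPM plus a small offset on a log axis, with exact 95% Poisson intervals. Il4, Il13, Calca, Il10 and Il1rl1 are higher in both OVA libraries than in both others (Calca 3.56, 524, 4.58 and 732 CPM), while Ccl5 is lower in both (1442, 587, 1623 and 619.5 CPM).

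These differences were not held by the cells with a detected type 2 cytokine UMI alone. With those cells left out of all libraries, a comparison added after the data had been seen, Il10 was 16.98-fold (12.5–23.5) and 5.84-fold (4.53–7.63) with OVA, Il1rl1 4.12-fold (2.89–5.90) and 5.53-fold (4.03–7.72), and Gata3 2.66-fold (2.31–3.08) and 2.87-fold (2.48–3.34). A cell whose cytokine transcripts were missed stays among the rest, so these folds may include such cells. Areg differed between the pairs. Over all selected cells it had 95.7, 284, 49.4 and 264 CPM, and without the positive cells 94.9, 59.0, 46.2 and 76.8 CPM, lower in Vehicle-OVA than in Vehicle and higher in Ribavirin-OVA than in Ribavirin. When each cell was thinned to 1000 UMIs before selection, Areg was lower with OVA in both pairs.

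By the rule for named genes, the 12 highest with OVA in both pairs were Calca, Cbr2, Il1rl1, Il13, Cyp11a1, Il10, Lag3, Vdr, Slc17a6, Cyp2a5, Dusp16 and Cyp2f2. These 12, and the 12 lowest below, were picked by this ratio, so their direction is no finding. Calca, Il13, Cyp11a1, Vdr, Slc17a6, Dusp16 and Cyp2f2 also reached the minimum of 50 UMIs only through the OVA libraries. Lag3, an inhibitory receptor, had 14.4, 172, 15.7 and 204 CPM, and Vdr, the vitamin D receptor, 0.791, 45.4, 2.62 and 89.5 CPM. Cyp11a1 had 0.198, 71.6, 0 and 103 CPM, at least 105-fold higher in Ribavirin-OVA than the 3 UMIs that a count of 0 in Ribavirin allows. Slc17a6, a vesicular glutamate transporter, had 0, 43.0, 0.327 and 34.2 CPM, at least 72.6-fold higher in Vehicle-OVA than Vehicle on the same ground. Dusp16, a phosphatase of MAP kinases, had 5.34, 92.2, 5.89 and 70.5 CPM, and 111, 401, 138 and 98.0 CPM in cells with Cxcr2 and no Cd3.

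Cbr2, Cyp2a5 and Cyp2f2, metabolic enzymes abundant in airway epithelium, rested on few cells in Vehicle-OVA. There a single cell held 97.3% of the Cbr2, 98.9% of the Cyp2a5 and 94.0% of the Cyp2f2 UMIs, and in Ribavirin-OVA 58.2%, 55.8% and 80.4%. In Ribavirin-OVA they were spread more widely, with a UMI in 99, 75 and 38 of the 444 cells. Without the selected cells above the 95th percentile of depth, Cyp2a5 and Cyp2f2 were no longer higher in Vehicle-OVA than in Vehicle.

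The 12 lowest with OVA were H2-Eb1, Obp1a, Cxcl9, Cd7, Cd74, Atp5g1, Ppib, Ubb, Ramp1, H2-Aa, Ndufa13 and Tceb2. Cd7, a surface gene of T cells, had 49.2, 13.1, 84.4 and 14.4 CPM, and Ramp1, a subunit of the CGRP receptor, 314, 74.4, 232 and 81.2 CPM. Cd74, the invariant chain of antigen-presenting cells, had 909.6, 134, 399.7 and 133 CPM in the selected cells and 10410, 2472, 7374 and 3604 CPM in all cells without Cd3, lower with OVA in both.

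Genes of activation and inhibition were partly higher with OVA. Of all genes 9.19% and 7.45% were at least 2-fold higher in the vehicle and the ribavirin pair, and fewer with median-of-ratios scaling. Of the checkpoint genes 3 and 3 of 10 were at least 2-fold higher, the same 3 in both pairs (Pdcd1, Lag3 and Entpd1). The list medians were 0.74 and 0.84 for checkpoint and 0.61 and 0.58 for costimulation genes, against 0.33 and 0.35 for all genes. Pdcd1, the receptor PD-1, had 44.5, 163, 56.6 and 230.5 CPM. Cd160 was at least 2-fold lower in both pairs, at 31.6, 12.6, 28.8 and 3.60 CPM. Of the costimulation genes 6 and 3 of 16 were at least 2-fold higher, among them Il2ra at 42.3, 321, 36.3 and 240.5 CPM and Tnfrsf9, the receptor 4-1BB, at 39.7, 201, 36.3 and 126 CPM. Cd40lg, the CD40 ligand, was lower, 0.444-fold (0.372–0.526) in the vehicle and 0.644-fold (0.541–0.765) in the ribavirin pair.

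Type 1 genes stayed near the median of all genes, at 0.38 and 0.39, with 1 gene at least 2-fold higher and 1 lower in each pair, and that median turned slightly negative in both pairs with median-of-ratios scaling. Ifng had 214, 118, 222 and 159 CPM and Ccl5 1442, 587, 1623 and 619.5 CPM, both lower with OVA. Type 17 genes that remained after the selection had medians of -0.57 and -0.65, which turned positive in both pairs when cells were thinned before selection. Tmem176b, a membrane channel of type 17 cells, had 387, 97.3, 266 and 141 CPM, whereas Maf, a factor used by several programmes, had 467, 1139, 454 and 1235 CPM. Of the follicular helper genes 4 and 3 of 9 were at least 2-fold higher, beside 9.19% and 7.45% of all genes. Il21, the cytokine of B cell help, had 5.54, 33.7, 6.21 and 34.5 CPM, while Cxcr5, the follicle-homing receptor, had 5.14, 19.6, 5.89 and 3.96 CPM and was higher with OVA under vehicle only, 3.82-fold (2.29–6.50) against 0.672-fold (0.287–1.502), and not under vehicle either after thinning.

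Of the naive and recirculating genes 5 and 1 of 15 were at least 2-fold higher, with Tcf7 at 214, 483, 222 and 339 CPM and Satb1, a chromatin organiser, at 257, 725, 269.9 and 555 CPM. The ribavirin median of this list, 0.25, turned negative with median-of-ratios scaling. At least 2-fold higher, beside 9.19% and 7.45% of all genes, were also 3 and 2 of 19 receptor signalling genes, 5 and 2 of 19 cytokine receptors, 2 and 3 of 18 chemokine receptors and integrins, 5 and 3 of 19 interferon-stimulated genes, 5 and 1 of 18 immediate early genes, 2 and 2 of 13 residency genes, 4 and 2 of 13 cell cycle genes, 2 and 0 of 13 glycolysis genes, 3 and 1 of 12 apoptosis genes, 0 and 1 of 10 sterol genes and 1 and 0 of 10 stress granule genes. Of these lists, apoptosis had 2 and 3 genes at least 2-fold lower, more than higher in the ribavirin pair, residency 1 and 0, sterol 1 and 0 and interferon-stimulated 0 and 1, and the other lists none.

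**Figure D5:**
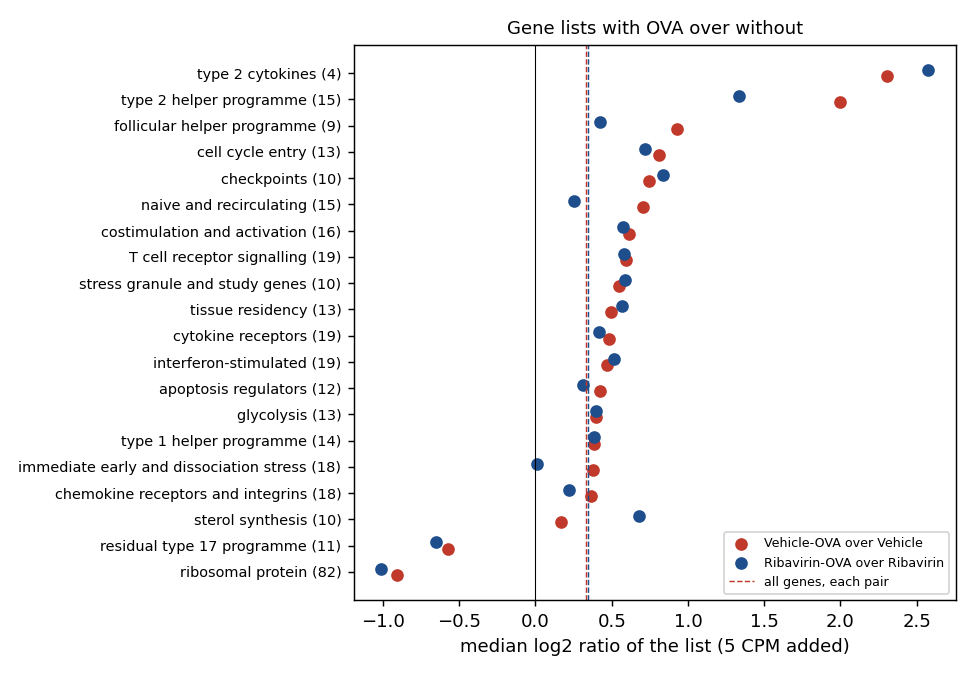
Median log2 ratio of each gene list with OVA over without, in the vehicle and the ribavirin pair, after adding 5 CPM, beside the median of all genes (0.33 and 0.35). The type 2 lists lie farthest to the right (programme medians 2.00 and 1.34, in part fixed by the UMI minimum) and the ribosomal protein genes farthest to the left.

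Ribavirin was compared with vehicle without and with OVA, in pairs that share their libraries with the OVA comparisons. Without OVA, 0.363% of genes were at least 2-fold higher and 0.166% at least 2-fold lower in Ribavirin than in Vehicle. The 6 highest were Obp2a, Mup4, Obp1a, Obp1b, Lcn11 and Mup5, secreted carrier proteins of the lipocalin family. Obp1a had 62.7, 14.5, 1446 and 399 CPM in the selected cells and 3562, 514, 17838 and 6129 CPM in all cells without Cd3, so it was higher in Ribavirin outside the T cells too. The 6 lowest were Ly6i, H2-Eb1, Spint1, H2-Ab1, Cd74 and Napsa. Of these, H2-Eb1, H2-Ab1 and Cd74 were not lower when at least 2 Cd4 UMIs were required. Among the type 2 programme genes Il10 was at least 2-fold higher in Ribavirin, 2.60-fold (1.79–3.801), with 45.5% of its UMIs in 1 cell, and Igfbp7 at least 2-fold lower.

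With OVA, 1.07% of genes were at least 2-fold higher and 1.57% at least 2-fold lower in Ribavirin-OVA than in Vehicle-OVA. The 6 highest were Obp1b, Bpifb9b, Reg3g, Obp1a, Krt15 and Chil4, of glands and epithelium, and single cells held 83.1% of the Reg3g, 96.7% of the Krt15, 68.4% of the Chil4 and 41.1% of the Bpifb9b UMIs of Ribavirin-OVA. Chil4 was found in 207 of its 444 selected cells. The 6 lowest were Irg1, Cxcl3, Ptgs2, Il1rn, Cxcl2 and Cd14, inflammatory genes of myeloid cells. Cxcl2, a neutrophil-attracting chemokine, had 111, 1165, 182 and 61.5 CPM in the selected cells and 6682, 20334, 10262 and 4375 CPM in cells with Cxcr2 and no Cd3, in the same order of libraries.

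None of the 4 type 2 cytokines and 1 of 15 type 2 programme genes (Epas1, 2.51-fold (2.12–2.99)) passed 2-fold between Ribavirin-OVA and Vehicle-OVA. Il13 was 1.23-fold (1.01–1.498), Il4 0.787-fold (0.576–1.08) and Il5 2.41-fold (1.47–4.09), the last below 2-fold only after adding 5 CPM. Il10 was 0.713-fold (0.650–0.781) and Calca 1.40-fold (1.30–1.505). These intervals do not cover the uneven spread over cells, and a single cell held a large part of the Calca UMIs of Vehicle-OVA. In Vehicle-OVA and Ribavirin-OVA, Il10 was found in 12.5% and 12.4% of the selected cells and Calca in 6.23% and 11.0%.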

How the data were processed

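The 4 libraries were made on a 10x Chromium system from CD45+ cells of digested nasal mucosa. The labels name magnetic beads and the series text flow sorting for the enrichment. For each library the authors deposited whole-number UMI counts per gene and called cell, not normalized, from Cell Ranger 5.0.0, with mm10 named in the submitters' processing notes. The deposited depth was 91742940 to 171873110 UMIs a library. Cells were kept with at least 500 UMIs, 200 genes and under 10% mitochondrial UMIs, and counts of selected cells were summed per library and scaled to CPM. Intervals are exact Poisson (levels), Clopper-Pearson (shares) and conditional binomial (ratios). A ratio was called from 2-fold after adding 5 CPM, in genes with at least 50 UMIs. The ratio step was tested on simulated data. Scrublet (scanpy 1.11.5) marked 0.567% to 5.32% of the cells of a library and 14, 9, 7 and 0 selected cells, which were kept, and in every library it marked fewer cells than the expected rate.

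The selection and the gene lists were chosen with earlier results of these data known. Named genes are list genes, the 12 highest and 12 lowest by the smaller of both OVA ratios, the 6 at each end of each ribavirin pair, and the 12 highest and 6 lowest in cytokine-positive cells, leaving out genes of the selection, mitochondrial, ribosomal and unnamed genes. The genes set beside cytokine-positive cells other than the ranked ones, and the levels in other cells, were chosen after values were seen. A gene on the lists is not reported here. Python 3.11.15, numpy 2.4.6, scipy 1.17.1, pandas 2.3.3 and matplotlib 3.10.9 were used.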

Additional observations from a re-analysis of the deposited data

Results flagged for a closer look

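The share of the selected cells among passing cells moved in opposite directions with OVA, by -0.997 under vehicle and 0.67 under ribavirin (log2). The same was seen for several genes, given as log2 ratios with OVA under vehicle and then under ribavirin. With 1 library a group the difference between the pairs was not tested for any of them. Inflammatory genes of myeloid cells differed most, Cxcl3 by 4.35 and -1.26, Irg1 by 4.58 and -1.11, Cxcl2 by 3.34 and -1.49, Cd14 by 3.07 and -1.27 and Ptgs2 by 2.47 and -0.996, and the summed neutrophil markers in the selected cells were also highest in Vehicle-OVA and lowest in Ribavirin-OVA, at 441, 1779, 687 and 301 CPM. Their part in these differences was not tested. The other genes differed by Txk (0.40 and -0.39), Ly6c2 (0.29 and -0.22), Odc1 (0.21 and -0.37) and Igfbp7 (-0.35 and 0.48).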

How the results depend on the processing

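No paired analysis was possible because each group has 1 library. Leaving out a library was likewise not possible. Over the alternatives run, the share with a type 2 cytokine UMI ranged over 5.48 to 9.74% in Vehicle-OVA and 5.81 to 14.1% in Ribavirin-OVA, with 5.81% in the latter after thinning cells to 1000 UMIs before selection. The log2 ratio of the share of selected cells was -0.54 (vehicle) and 1.05 (ribavirin) with at least 2 Cd4 UMIs, -1.41 and 0.46 after thinning, and reversed to 0.65 under vehicle with Cd3 cells as denominator.

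Genes at least 2-fold higher with OVA numbered 887 and 719 (vehicle, ribavirin), but 437 and 450 after thinning, 308 and 248 with median-of-ratios scaling, 1593 and 1382 with 0.5 CPM added and 316 and 217 with 20 CPM. Genes at least 2-fold lower numbered 240 and 217, but 662 and 558 with median-of-ratios scaling, 398 and 344 with 0.5 CPM and 121 and 123 with 20 CPM. The split of higher against lower genes thus depends on the scaling.

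Of 18836 gene ratios recomputed, 24 reversed, and the cause was not tested. After thinning, the log2 ratio with OVA under vehicle was -0.55 for Areg, -0.69 for Cbr2, -0.49 for Cxcr5, -1.59 for Cyp2f2, -1.15 for Hspa1b and 0.0067 for Il23r, and under ribavirin -0.27 for Areg. Also after thinning, Cbr2 was -1.29 in Ribavirin over Vehicle, and Atf3 0.75 and Fas 0.20 in Ribavirin-OVA over Vehicle-OVA, where Atf3 was 0.87 with 1 Cd3 UMI allowed. With at least 2 Cd4 UMIs, Ribavirin over Vehicle was 0.22 for Cd74, 0.30 for H2-Aa, 0.0885 for H2-Ab1 and 0.0598 for H2-Eb1. Under vehicle, Cyp2a5 and Cyp2f2 were -0.37 and -0.0424 without the deepest cells, -0.31 and -0.0556 without cytokine-positive cells, when Areg was -0.64, and -0.31 and -0.19 under 5% mitochondrial UMIs. Without the exclusions on C1q, Cd79a, Cxcr2 and Siglech, Cyp2a5 was -0.99 and Spint1 -0.045 under ribavirin.

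Of 1600 list medians 11 reversed. With median-of-ratios scaling they were -0.00112 (vehicle) and -0.0221 (ribavirin) for type 1, -0.0408 for apoptosis and -0.0603 for naive genes (ribavirin), and -0.0231 for chemokine receptors and -0.0275 for immediate early genes (vehicle). After thinning they were 0.61, 0.32 and 0.22 for residual type 17 genes (vehicle, ribavirin, Ribavirin over Vehicle), and -0.55 and -0.27 for type 2 cytokines, of which Areg alone then had enough UMIs.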
